A study of Mus musculus with 5 samples.

Results

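The miR-26 and miR-101 families of the mouse kidney were followed across the first days after renal ischemia reperfusion injury (IRI). The members were mmu-miR-26a-5p, mmu-miR-26b-5p, mmu-miR-101a-3p, mmu-miR-101b-3p, and mmu-miR-101c, taken as the probes on the array that carry exactly these names and are not controls, and the species prefix is left out below. They were 5 of the 1247 miRNAs on the array, and 4 of them were detected on all 5 arrays, where 182 miRNAs in all were detected throughout. The remaining member, miR-101b-3p, was detected on no array.

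Kidneys came from healthy male C57B/6 mice of 20 to 25 g that carried no genetic change according to the labels, and whose age was not given. The injured groups had both kidneys clamped for 30 min of warm ischemia and were killed at 6, 12, 24, or 48 h of reperfusion. The sham group had the same surgery without a clamp, and the time at which its kidneys were taken was not given. RNA was measured on 1-colour Agilent mouse miRNA arrays with 1 array for each of the 5 groups, while 8 mice per time point were described and the sources do not say whether their RNA was pooled.

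No spread between animals was therefore measured and no test between groups was possible. Every error below is the error that the scanner software assigned to the spots of 1 array, and a ratio between arrays carries the combined error of both. The software used a multiplicative error of 0.1 on every array. The probe signals of miR-26a-5p were 9.90 to 9.99 times their errors, so that error was close to a fixed share of the signal. The scanner error holds no variation between animals, so lying within or beyond it is no test of a difference. Signals are given in the linear intensity units of the software. A probe was taken as detected above 3 times its error, and the signal of a miRNA is the sum over its own detected probes, with no scaling between arrays. The sham and 6 h arrays shared slide 1, and the 12, 24, and 48 h arrays shared slide 2, so slide and injury cannot be told apart in a comparison of sham with the later 3 times.

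MicroRNAs are short RNAs that guide a silencing complex to messenger RNAs, mainly by pairing through the seed near their 5′ end. Members of both families are known to be able to repress Ezh2, the histone methyltransferase of the Polycomb repressive complex that keeps genes silent. The miR-26 genes lie inside genes of the Ctdsp family of small phosphatases, and the miR-101 family is best known for the increase of Ezh2 in tumors that lose it.

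The mature sequences are shown because the seeds define the families and because the likeness of the miR-101 sequences bears on what the probes can tell apart. They are from RefSeq (GRCm38.p6), where all 5 members were found, and run 5′ to 3′ with the seed, bases 2 to 8, in capitals.
miR-26a-5p: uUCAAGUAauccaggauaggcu
miR-26b-5p: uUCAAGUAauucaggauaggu
miR-101a-3p: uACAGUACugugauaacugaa
miR-101b-3p: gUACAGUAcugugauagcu
miR-101c: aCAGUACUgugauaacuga

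miR-26a-5p and miR-26b-5p shared the seed UCAAGUA, which no other mature miRNA of the RefSeq table carried. They were identical at 19 of 21 aligned bases and differed by C11U and C21U, counted from the 5′ end of miR-26a-5p. The miR-101 sequences matched each other only when shifted. miR-101b-3p began 1 base earlier than miR-101a-3p and differed from it by A16G, counted on miR-101a-3p, over 18 aligned bases. miR-101c was the same as bases 2 to 20 of miR-101a-3p, with no difference over its 19 bases. Because of these shifts the 3 miR-101 members had 3 different seeds as annotated. Bases 2 to 7 of miR-101a-3p were also those of miR-144-3p, a red blood cell miRNA that was detected on no array.

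In GRCm38.p6, miR-26a-5p is made from Mir26a-1 at chr9:119031811-119031832 on the plus strand, within the span of Ctdspl, and from Mir26a-2 at chr10:126995543-126995564 on the plus strand, within that of Ctdsp2. miR-26b-5p lies at chr1:74394324-74394344 on the plus strand, within the span of Ctdsp1. miR-101a-3p lies at chr4:101346957-101346977 on the minus strand, within the long noncoding RNA gene E130102H24Rik. miR-101b-3p lies at chr19:29135338-29135356 on the plus strand, within Rcl1. miR-101c lies at chr9:3038680-3038698 on the minus strand, with no other gene in the table over it. The table gives gene spans only, so exons and introns were not told apart. An array signal for miR-26a-5p sums both of its genes.

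The probes are shown because they decide which member a signal can belong to. Each is DNA, 5′ to 3′, and the capitals mark the bases that pair with the RefSeq mature sequence of its own member.
miR-26a-5p probe of 15 bases: AGCCTATCCTGGATT
miR-26a-5p probe of 16 bases: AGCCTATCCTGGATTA
miR-26b-5p probe of 19 bases: ACCTATCCTGAATTACTTG
miR-26b-5p probe of 20 bases: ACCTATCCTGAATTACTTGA
miR-101a-3p probe of 20 bases: TTCAGTTATCACAGTACTGT
miR-101a-3p probe of 21 bases: TTCAGTTATCACAGTACTGTA
miR-101b-3p probe of 17 bases: ttcAGCTATCACAGTAC
miR-101b-3p probe of 18 bases: ttcAGCTATCACAGTACT
miR-101c probe of 18 bases: TCAGTTATCACAGTACTG
miR-101c probe of 19 bases: TCAGTTATCACAGTACTGT

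The miR-26 probes differed between the pair, and their longest unbroken pairing with the other miR-26 member was 9 bases. The pair was identical at 19 of 21 aligned bases, and how much of each miR-26 signal came from the other RNA was not tested. By base pairing alone, the probes of miR-101a-3p and miR-101c could each pair with both RNAs, and binding was not measured. Both probes of miR-101c paired over their whole length with miR-101a-3p, leaving 0 bases unpaired, and the 20-base probe of miR-101a-3p paired with all 19 bases of miR-101c. Values printed for these members are therefore those of the probes that bear their names, and how much of each came from the other RNA was not tested. The miR-101b-3p probes paired with 14 and 15 bases of the annotated mature miRNA, and their first 3 bases pair with gaa, the bases that follow it in the hairpin.

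The labelled tissue was checked by markers of kidney tubule. miR-192-5p, miR-194-5p, and miR-204-5p, which are markers of tubule epithelium, were detected on all 5 arrays, and miR-215-5p was detected on none. Of these, miR-204-5p was weak, with 7.26 in sham from 1 detected probe, against 738 for miR-192-5p. The number of detected miRNAs ran from 197 on the 48 h array to 298 on the 24 h array, and no spot was saturated. The software multiplied probe signals by an effective feature size, which was its default of 0.6 on the sham, 6 h, and 48 h arrays and was estimated as 0.774 at 12 h and 0.776 at 24 h. The geometric mean of 4 spike-in controls over sham was 1.05 on the 6 h array and 2.08, 2.13, and 2.06 on the 12, 24, and 48 h arrays, so the spike-ins were about as bright on both arrays of slide 1 and brighter on those of slide 2. Signals after setting 1 feature size on all arrays and after scaling by these spike-ins are given beside the results that they change.

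miR-26a-5p had a signal of 533 ± 39.2 (scanner error) in sham kidney. After 6, 12, 24, and 48 h of reperfusion its signal was 570 ± 41.9, 786 ± 57.6, 988 ± 72.7, and 344 ± 25.5. The order of the arrays was 48 h, sham, 6 h, 12 h, and 24 h from low to high, and sham and 6 h did not differ beyond the scanner error, with a log2 ratio of 0.10 ± 0.15. With 1 feature size the 12 h signal was 609 and the 24 h signal was 764, and the order was kept, with 12 h now near 6 h.

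miR-26b-5p, the partner with the same seed, had a signal of 175 ± 13.0 in sham kidney. Its signal after 6, 12, 24, and 48 h was 170 ± 12.7, 209 ± 15.6, 317 ± 23.6, and 111 ± 8.57. The 24 h array was again highest and the 48 h array lowest, while sham and 6 h were within the scanner error of each other, with a log2 ratio of −0.05 ± 0.15. With 1 feature size the 12 h signal was 162, below sham, and the 24 h signal was 245.

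miR-101a-3p had a signal of 35.2 ± 3.03 in sham kidney. On the injured arrays it was 41.3 ± 3.60, 54.5 ± 4.81, 57.9 ± 5.67, and 25.6 ± 2.94 in order of time. The 12 and 24 h arrays were the highest pair and did not differ beyond the scanner error, with a log2 ratio of 24 h over 12 h of 0.09 ± 0.19. With 1 feature size these signals were 42.2 and 44.8, near that at 6 h.

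miR-101c had a signal of 19.1 ± 2.27 in sham kidney. The injured kidneys gave 23.5 ± 2.77, 37.8 ± 4.09, 35.6 ± 4.81, and 9.83 ± 1.91 in order of time. Here too the 12 and 24 h arrays were not separated, with a log2 ratio of −0.08 ± 0.25. With 1 feature size they were 29.3 and 27.6. The 48 h value rested on 1 of the 2 probes, because the 18-base probe was at 1.83 times its error.

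**Figure D1:**
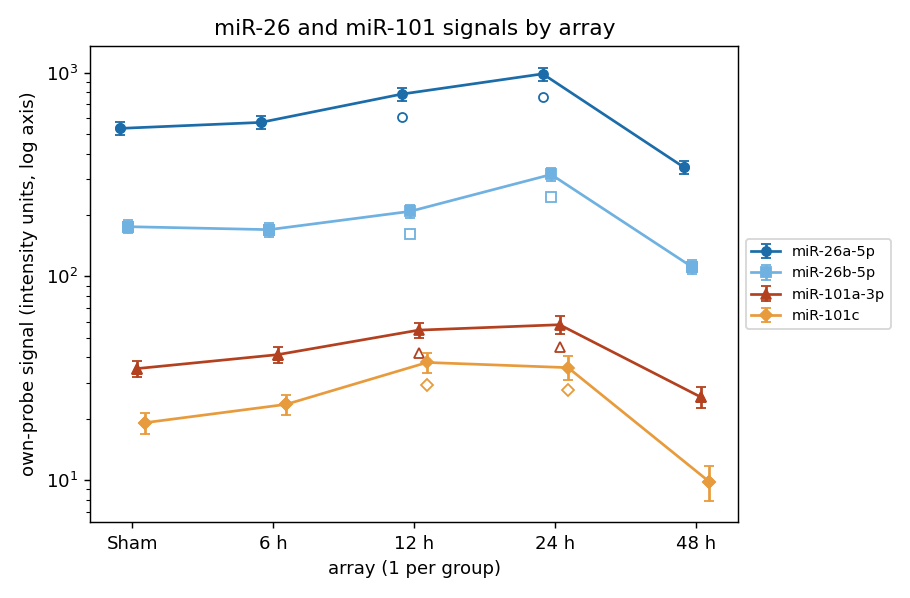
Own-probe signals of the 4 detected members on each array, in intensity units on a log axis, with the scanner error of 1 array per group as bars and open symbols for 1 effective feature size at 12 and 24 h. Before scaling all 4 members were lowest at 48 h, and the filled symbols at 24 h lie above sham for each, from 35.6 against 19.1 for miR-101c to 988 against 533 for miR-26a-5p, an order that 3 scalings of the arrays and the deposited processed table turned around.

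miR-101b-3p gave no level on any array. Its 18-base probe had signals of 2.49 in sham kidney and of 3.51, 3.42, 4.70, and 2.31 at the 4 times in order, which were 1.40 to 2.32 times their errors. Its 17-base probe lay between −1.37 and 0.29. These values were not detectable at this signal over background, and they do not show that the miRNA was absent. The other arms of the same hairpins, miR-26a-1-3p, miR-26a-2-3p, miR-26b-3p, miR-101a-5p, and miR-101b-5p, were detected on none of the arrays with any of their 14 probes, the highest of which reached 2.20 times its error.

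**Figure D2:**
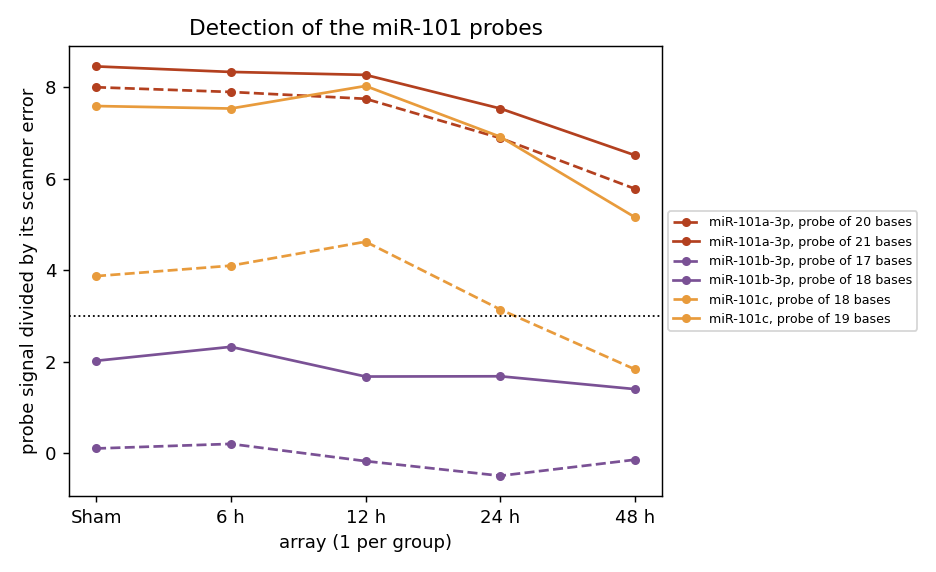
Signal of each miR-101 probe divided by its scanner error on each of the 5 arrays, with solid lines for the longer probe of each member, dashed lines for the shorter, and a dotted line at the detection limit of 3. Both miR-101b-3p probes stay under the limit on every array, and the 18-base probe of miR-101c moves from 3.87 in sham to 1.83 at 48 h.

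The 2 probes of a member were compared as repeat readings of the same RNA. For miR-26a-5p the 16-base probe was 1.72 to 1.86 times as bright as the 15-base probe, and for miR-26b-5p the 20-base probe was 1.76 to 1.91 times as bright as the 19-base probe. The 21-base probe of miR-101a-3p was 1.18 to 1.21 times as bright as its 20-base probe. For miR-101c this ratio was less steady, at 2.56 to 3.24. Each probe was printed in 20 spots. The coefficient of variation over these spots was 2.36% to 6.03% for miR-26a-5p and 3.11% to 7.25% for miR-26b-5p, and it reached 14.2% for miR-101a-3p and 24.5% for miR-101c, so the miR-26 values were the better measured.

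At 6 h after IRI the members were close to sham. The log2 ratio over sham was 0.10 ± 0.15 for miR-26a-5p, −0.05 ± 0.15 for miR-26b-5p, 0.23 ± 0.18 for miR-101a-3p, and 0.30 ± 0.24 for miR-101c. None of the 4 was past 1.5-fold, whereas 24.7% of the 182 miRNAs were past it upward and 4.95% downward. Relative to the median of all 182 miRNAs, again none of the 4 was, beside 23.1% upward and 6.04% downward. The median of the members was 0.16, as was that of all 182. Sham and 6 h were on the same slide with the same feature size, so neither of these differed in it.

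At 12 h the miR-101 members were higher than in sham by more than 1.5-fold before scaling. The log2 ratio was 0.63 ± 0.18 for miR-101a-3p and 0.98 ± 0.23 for miR-101c, against 0.56 ± 0.15 for miR-26a-5p and 0.25 ± 0.15 for miR-26b-5p. This made 2 of 4 members past 1.5-fold upward beside 48.4% of all 182 miRNAs, a share near the background. With 1 feature size only miR-101c stayed past it, at 0.61. Scaling by the spike-ins turned all 4 members to below sham, with miR-101a-3p at −0.43 and miR-26b-5p at −0.80, and the members' median was also below sham after scaling by the 75th percentile or quantiles.

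At 24 h all 4 detected members were at their unscaled maximum or within the scanner error of it. The log2 ratio over sham was 0.89 ± 0.15 for miR-26a-5p and 0.85 ± 0.15 for miR-26b-5p, which is a fold of 1.85 and 1.80. It was 0.72 ± 0.19 for miR-101a-3p and 0.90 ± 0.26 for miR-101c, a fold of 1.64 and 1.86. All 4 were past 1.5-fold, and so were 85.2% of the 182 miRNAs. With 1 feature size none of the 4 was, with folds of 1.27 to 1.44, and after scaling by the spike-ins, by the 75th percentile, or by quantiles all 4 were below sham.

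At 48 h the members were below sham. The log2 ratio was −0.63 ± 0.15 for miR-26a-5p and −0.66 ± 0.15 for miR-26b-5p. It was −0.46 ± 0.21 for miR-101a-3p and −0.96 ± 0.33 for miR-101c. In folds these were 0.646, 0.634, 0.726, and 0.514. This made 3 of 4 members past 1.5-fold downward, beside 23.6% of the 182 miRNAs, and miR-101a-3p was the exception. The miR-26 calls were not kept under every setting, and passed 1.5-fold under 6 of 10 alternatives each. Gene totals, 1 feature size, all probes, mean processed spot signals, and only probes detected on all 5 arrays left both ratios at −0.63 and −0.66. miR-26a-5p and miR-26b-5p were −0.50 and −0.53 with the 75th percentile, −0.54 and −0.50 with quantiles, −0.55 and −0.45 with normexp background correction, and −0.50 and −0.48 in the processed table. With quantiles no member passed 1.5-fold. The sham and 48 h arrays had the same feature size, so that setting did not enter, and the spike-ins, which were 2.06 times as bright at 48 h, widened the difference to a members' median of −1.68. In whole kidney, fewer cells that express a miRNA and less of it per cell cannot be told apart.

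The value of miR-101c at 48 h also depended on which probes were summed. When only probes detected on all 5 arrays were summed, so that the 19-base probe stood alone on both arrays, its log2 ratio was −0.51, and it was no longer past 1.5-fold. The 18-base probe alone gave −0.74, with the 48 h reading under the detection limit. Of its 20 spots, the software marked 6 as well above background in sham and 0 at 48 h.

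Comparisons between neighboring times after injury were made within slide 2, where the 12 and 24 h arrays shared scan 2 and the 48 h array had scan 3, so scan and time cannot be told apart from 24 to 48 h. From 12 to 24 h, miR-26b-5p was higher by 0.60 ± 0.15 on the log2 scale and miR-26a-5p by 0.33 ± 0.15, while miR-101a-3p at 0.09 and miR-101c at −0.08 stayed within the scanner error. Only miR-26b-5p was past 1.5-fold, beside 34.1% of the 182 miRNAs. It was just past it, and under 5 of 10 alternatives it was not, with 0.57 after scaling by spike-ins, 0.073 by the 75th percentile, 0.33 by quantiles, 0.50 with normexp, and 0.37 in the processed table. From 24 to 48 h the log2 ratio was −1.52 ± 0.15 for miR-26a-5p, −1.51 ± 0.15 for miR-26b-5p, −1.18 ± 0.22 for miR-101a-3p, and −1.86 ± 0.34 for miR-101c. All 4 members were past 1.5-fold downward, as were 89.6% of the 182 miRNAs, and with 1 feature size the members' median was −1.14 in place of −1.52. The direction from 24 to 48 h turned for miR-101a-3p after scaling by the 75th percentile, to 0.11, or by quantiles, to 0.25, and for miR-101c by quantiles, to 0.22, and under both of these scalings 0 of 4 members were past 1.5-fold downward.

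Since most miRNAs moved together between arrays, the members were also set against the median of the 182 miRNAs detected on all arrays, a difference that does not depend on any factor common to an array. For the 4 times in order, that median over sham was 0.16, 0.55, 1.03, and −0.23 on the log2 scale. The members' median minus it was 0.01, 0.05, −0.16, and −0.42. The first 3 of these were no larger than the median of the single members' scanner errors, which was 0.16 to 0.17 before 48 h. An error of the members' median itself was not computed. At 48 h the members' median was 0.750 times the median miRNA. Single members lay beyond their own scanner error earlier. miR-26b-5p was below the median miRNA by more than its error at 6, 12, and 24 h, at −0.20, −0.30, and −0.18. miR-101c was above it at 12 h, at 0.43, and miR-101a-3p below it at 24 h, at −0.32. These single values depended on the setting. With quantiles miR-26b-5p was −0.16, −0.059, and −0.025 at 6, 12, and 24 h, and miR-101c was 0.093 at 12 h. miR-101a-3p at 24 h was −0.43 with quantiles and −0.22 with normexp. miR-26a-5p at 12 h was 0.01 as reported and 0.33 with quantiles.

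At 48 h the difference to the median miRNA was −0.40 for miR-26a-5p, −0.43 for miR-26b-5p, −0.23 for miR-101a-3p, and −0.73 for miR-101c. By percentile among the 182 miRNAs these were at 19.8, 18.1, 31.3, and 8.79. All 4 lay in the lower part of the distribution, but only miR-101c was past 1.5-fold relative to the median, beside 12.1% of all miRNAs, and it was not when its 18-base probe was left out on both arrays, at −0.31. At 12 and 24 h none of the 4 was past 1.5-fold relative to the median in either direction as reported. With the processed table miR-101c was past it downward at 24 h, at −0.61. As reported, the share of the 182 miRNAs past it was 28.0% upward and 11.5% downward at 12 h, and 23.6% upward and 9.34% downward at 24 h. From 12 to 24 h it was 3.85% upward and 15.9% downward with 0 of 4 members. From 24 to 48 h it was 12.1% upward with 0 of 4 members and 17.6% downward with 1 of 4, which was again miR-101c. Without its 18-base probe on both arrays that difference was −0.25, and it was no longer past 1.5-fold.

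**Figure D3:**
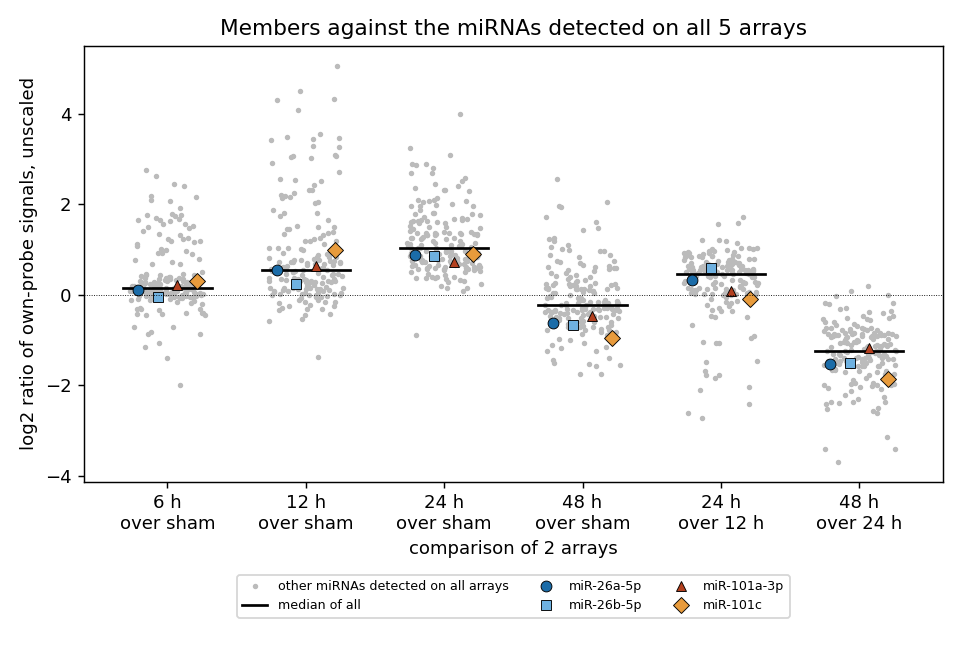
Log2 ratio of unscaled own-probe signals in 6 comparisons of 2 arrays, with a gray point for each of the other miRNAs detected on all 5 arrays, a black line at the median of all 182, and a colored symbol for each detected member. At 24 h over sham the members lie at 0.72 to 0.90 near the median of 1.03, and at 48 h over sham all 4 lie below the median of −0.23. The rise at 12 and 24 h turned to values below 0 when the arrays were scaled by spike-ins, the 75th percentile, or quantiles. The exception was miR-101c at 12 h, which stayed at 0.35 with the 75th percentile.

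The 2 members that share a seed were compared with each other, since a factor common to an array cancels. miR-26a-5p was higher relative to miR-26b-5p by 0.31 ± 0.21 on the log2 scale at 12 h over sham and by 0.15 ± 0.21 at 6 h. The difference was 0.04 at 24 h and 0.03 at 48 h. The ratios of the miR-26 pair over sham thus differed by less than the scanner error at 6, 24, and 48 h, and the largest gap was at 12 h, where both probes of miR-26a-5p gave 0.59 and 0.54 and both of miR-26b-5p gave 0.23 and 0.26. For miR-101a-3p minus miR-101c the differences at the 4 times in order were −0.07, −0.35, −0.18, and 0.50 ± 0.39. With probes that pair with both RNAs, these are differences between probe sets. At 48 h the miR-101c signal rested on 1 of its 2 probes. With only probes detected on all 5 arrays, the 48 h ratios over sham were −0.46 for miR-101a-3p and −0.51 for miR-101c.

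The miRNAs with the most similar course were found by the root mean square difference of the log2 ratio over sham at the 4 times, among the miRNAs detected on all arrays. For miR-26a-5p they were miR-30d-5p at 0.107, miR-30e-5p at 0.113, and miR-500-3p at 0.121, where the median over all others was 0.512. For miR-26b-5p they were miR-130a-3p at 0.0803, miR-152-3p at 0.0977, and miR-652-3p at 0.114. For miR-101a-3p they were miR-194-5p at 0.0875, miR-30a-5p at 0.109, and miR-30e-5p at 0.126.

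miR-101c stood farther from its nearest, which were miR-5107-5p at 0.127, miR-30e-5p at 0.208, and miR-30c-5p at 0.267. miR-26a-5p was nearer to miR-101a-3p, at 0.142, than to miR-26b-5p, at 0.173. miR-101a-3p and miR-101c were 0.321 apart. These are descriptions over 4 ratios that share the sham array. No error of the distances was computed. In the miR-26 pair the difference of 2 ratios over sham had a scanner error of 0.21 to 0.22. The order of distances smaller than that, such as 0.142 and 0.173, was therefore not resolved. The distances of miR-101c use its 48 h ratio of −0.96, for which 1 of its 2 probes was summed at 48 h. That ratio was −0.51 with only probes detected on all 5 arrays, and distances with that value were not computed.

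Members of the miR-30 family appeared in the nearest 3 of miR-26a-5p and of both detected miR-101 members. The 5 miR-30 miRNAs had medians over sham of 0.36, 0.72, 0.87, and −0.51 on the log2 scale at the 4 times in order. From 12 to 24 h their median was 0.26, and from 24 to 48 h −1.52, beside 0.21 and −1.52 for the miR-26 and miR-101 members. The 9 miRNAs of the let-7 family, which are abundant and often linked to differentiated cells, had medians of −0.05, 0.03, 0.77, and −0.35 at the 4 times and of 0.73 from 12 to 24 h. On slide 2 the let-7 signals were thus higher at 24 h than at 12 h by more than those of the miR-101 members.

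Other miRNAs known to be able to repress Ezh2 were described as a list of 12, namely let-7a-5p, let-7b-5p, let-7c-5p, let-7e-5p, miR-98-5p, miR-25-3p, miR-30d-5p, miR-124-3p, miR-137-3p, miR-138-5p, miR-144-3p, and miR-214-3p. It overlaps with the let-7 and miR-30 lists. All 12 were on the array and 8 were detected on all arrays, and miR-124-3p, miR-137-3p, miR-138-5p, and miR-144-3p were detected on none. On the log2 scale the median of the 8 over sham was 0.03, 0.05, 0.72, and −0.37 at the 4 times in order. At 6 h 0 of the 8 were past 1.5-fold in either direction, and at 12 h 0 were, beside 48.4% upward among all 182 miRNAs. At 24 h 6 were past it upward beside 85.2%, and at 48 h 1, miR-30d-5p, was past it downward beside 23.6%. At 12 h the list lay 0.50 below the median of all 182 miRNAs on the log2 scale, where the miR-26 and miR-101 members lay 0.05 above it. Ezh2 itself was not measured on these arrays.

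Markers of other cell types moved between the arrays, and their part in the members' values was not tested. The summed signal of the 3 detected tubule markers was 893 in sham and 922, 1154, 1250, and 640 at the 4 times in order. Before scaling it too was thus highest at 24 h and lowest at 48 h. Divided by the spike-in ratio it was highest in sham, with 588 at 24 h and 311 at 48 h. miR-192-5p gave 738 of the sham sum, and miR-204-5p was 8.29 at 48 h against 7.26 in sham. Of 2 endothelial markers, miR-126-3p was detected throughout and miR-126-5p only in sham, and their sum ran from 586 at 48 h to 1284 at 24 h. Divided by the spike-in ratio the endothelial sum was 831 in sham, 604 at 24 h, and 285 at 48 h. The stromal sum, with 3 of 4 markers detected on all arrays, ran from 150 in sham to 366 at 24 h and was 178 at 48 h, above sham.

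Blood cell markers followed another order. The red blood cell marker miR-451a gave 159 in sham and 500, 234, 538, and 105 at the 4 times, and miR-144-3p, its neighbor in the genome, was detected on no array. Among 5 leukocyte markers, miR-223-3p of neutrophils and miR-155-5p were detected on all arrays, miR-142-3p on 3, and miR-142-5p and miR-150-5p on none. Their sum was 38.2 in sham and then 66.4, 99.8, 58.2, and 61.2. Before scaling, the leukocyte and stromal sums were above sham at 48 h, where the 4 members were below it. Divided by the spike-in ratio both sums were below sham at 48 h, with 29.8 against 38.2 for leukocytes and 86.4 against 150 for stroma. The stromal markers did not move together, since miR-199a-3p was 94.2 in sham and 128 at 48 h while miR-143-3p was 41.5 and 30.6, and miR-145a-5p was detected in sham and not at 48 h.

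Base composition also differed between the members and other miRNAs. The 4 detected members had a GC content of 33.3% to 40.9%, and miR-101b-3p had 42.1%. The median of the 149 of 182 miRNAs found in the RefSeq table was 47.8%. At 24 h over sham the median log2 ratio was 0.87 over the 78 miRNAs under 50% GC and 1.26 over the 71 others. Across the 149 miRNAs, which share the same 2 arrays, Pearson's r between GC content and this ratio was 0.34 and Spearman's rho was 0.26. The members' 24 h values of 0.72 to 0.90 thus stood near the median of the low-GC miRNAs. This did not hold at 12 h, where the medians were 0.33 and 0.70 and the members' median of 0.59 was nearer the latter. At 6 h the medians were 0.10 and 0.19, with the members' median of 0.16 between them. At 48 h the medians were −0.33 and −0.16, both above the members' median of −0.64.

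The processing settings were compared for the members as a group. At 24 h over sham the members' median was 0.87 as reported and 0.50 with 1 feature size, and it was −0.22 after scaling by spike-ins and −0.29 by the 75th percentile. At 48 h over sham it was below 0 under 11 of 11 alternatives, from −1.68 to −0.49. Relative to the median of all miRNAs it was −0.50 to −0.33 at 48 h under 12 of 12 alternatives. In both counts 1 feature size could not change the value, since the sham and 48 h arrays had the same one. Mean processed spot signals could not either, because between these arrays they followed the probe signals, and they left the 2 values at −0.64 and −0.42.

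**Figure D4:**
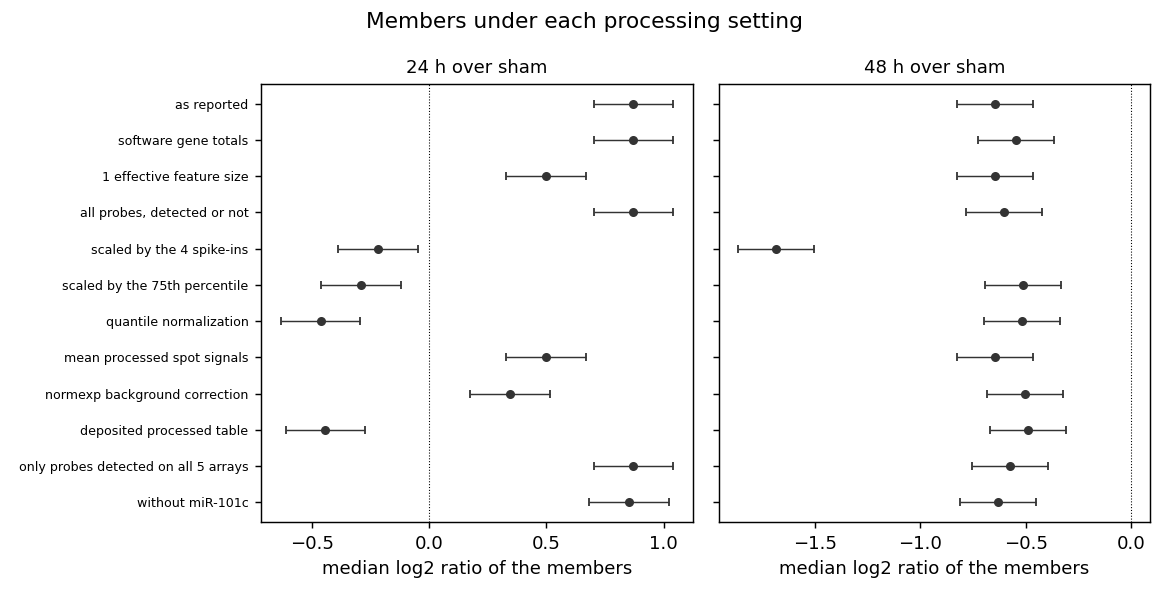
Members' median log2 ratio over sham at 24 h (left) and 48 h (right) as reported and under each alternative setting. Bars at every setting are the median of the single members' scanner errors for the reported ratios, ± 0.17 and ± 0.18. At 24 h the values lie on both sides of 0, from −0.46 to 0.87, and at 48 h all lie below 0.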

How the data were processed

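Total RNA of mouse kidney, 0.1 µg per array, was labelled with Cy3 and hybridized to Agilent mouse miRNA arrays (Release 19). The authors deposited the intensity values of Agilent Feature Extraction 10.7.1.1 (version per the submitters' processing notes), from which the software had removed background and spatial trends and which had no normalization between arrays. The authors also deposited a processed table of log2 values with no stated method. Its scale and centring are unknown, and it served as an alternative only. Probe maps in the headers are for mm9 and were not used for positions.

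For each miRNA the total probe signals were summed once per probe over probes above 3 times their error, and the squared errors were added. Log2 ratios were taken with no pseudocount. Relative values subtract the median of the 182 miRNAs detected on all 5 arrays. A fold of 1.5 counted as called. Spots flagged as outliers were left out of the spot means. Each group, taken from the labels, had 1 array, so no test was run and precision is limited by how few arrays there were. The lowest detected signal was 1.99 in sham and 4.35 at 24 h.

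The members, the lists, and the tests were chosen with earlier results of these data known. Named miRNAs were all members, the other arms of their hairpins, 3 miRNAs of most similar course per member, and the fixed lists. Alternatives were the software's gene totals, 1 effective feature size, all probes, the 4 spike-ins, the 75th percentile, quantiles, mean processed spot signals, normexp with an offset of 50, the processed table, leaving out miR-101c, and reference medians over miRNAs detected on both arrays or of like sham signal. Summing only probes detected on all 5 arrays and a reference of like GC content were added after seeing the data. Computation was tested on simulated data. RefSeq tables (GRCm38.p6) named 1017 of the 1247 miRNAs. The software was R 4.3.3 with limma 3.58.1 for normexp, and Python 3.11.15 with pandas 2.3.3, numpy 2.4.6, and matplotlib 3.10.9 for the rest. The qRT-PCR, histology, and creatinine measurements were not analysed here.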

Additional observations from a re-analysis of the deposited data

Results flagged for a closer look

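The software's total gene signal of miR-101c at 48 h held more than the signal of its own probes. The total was 35.4, whereas its detected probe gave 9.83, and the excess of 25.6 equalled the total of miR-101a-3p on the same array. On the sham array, where both probes of miR-101c were detected, the total and the own-probe sum were the same. With the total gene signal the log2 ratio of miR-101c at 48 h over sham would be 0.89 in place of −0.96, so the own-probe sums were used throughout.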

How the results depend on the processing

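No paired analysis was possible because there was 1 array per group. The members' median kept its direction at 48 h over sham under all 11 alternatives, of which 1 feature size and mean processed spot signals could not change it. The software's gene totals changed only miR-101c among the members there. Only the spike-ins moved it by more than the median of the single members' scanner errors, to −1.68. At 6 h it was −0.14 with the 75th percentile and −0.30 with quantiles and with the processed table. At 12 h it was 0.23 with 1 feature size and with mean processed spot signals, 0.16 with normexp, −0.46 with spike-ins, −0.039 with the 75th percentile, −0.51 with quantiles, and −0.54 with the processed table. At 24 h it was 0.50, 0.50, 0.34, −0.22, −0.29, −0.46, and −0.44 in the same order. From 12 to 24 h it was −0.32 with the 75th percentile. From 24 to 48 h it was −1.14 with 1 feature size and with mean processed spot signals, −0.96 with normexp, −0.22 with the 75th percentile, −0.012 with quantiles, and −0.00097 with the processed table. Relative to the median of all miRNAs, the members' median moved only at 12 h over sham and from 12 to 24 h. It was 0.27 at 12 h against miRNAs of like GC content (added after seeing the data), and −0.069 from 12 to 24 h with normexp. Single members moved by more than their scanner errors. With quantiles and the processed table, miR-101c was 0.093 and 0.10 at 12 h and −0.54 and −0.61 at 24 h. With the same settings miR-26a-5p was 0.33 and 0.36 at 12 h.

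Single members changed direction under scaling. At 12 h miR-26a-5p was −0.49 with spike-ins, −0.073 with the 75th percentile, −0.20 with quantiles, and −0.22 with the processed table, and miR-26b-5p was −0.80, −0.38, −0.59, and −0.60, and also −0.12 with 1 feature size and with mean processed spot signals and −0.085 with normexp. At the same time miR-101a-3p was −0.43 with spike-ins, −0.0043 with the 75th percentile, −0.67 with quantiles, and −0.66 with the processed table, and miR-101c was −0.071, −0.44, and −0.48 with spike-ins, quantiles, and that table. At 24 h miR-26a-5p, miR-26b-5p, miR-101a-3p, and miR-101c were −0.20, −0.24, −0.37, and −0.19 with spike-ins, −0.27, −0.31, −0.44, and −0.26 with the 75th percentile, −0.055, −0.26, −0.67, and −0.77 with quantiles, and −0.037, −0.23, −0.66, and −0.84 with the processed table. From 24 to 48 h miR-101a-3p was 0.11 with the 75th percentile, 0.25 with quantiles, and 0.28 with the processed table, and miR-101c was 0.22 and 0.25 with the latter 2. At 48 h over sham miR-101c was 0.89 with the software's gene total, whose excess on that array equalled the miR-101a-3p total. The gene totals of miR-101c on the other 4 arrays had no such excess, and the cause was not tested. These scalings shift every miRNA of an array, and the cause of the differences between them was not tested. miR-101b-3p was detected on no array, so no ratio was computed for it under any alternative.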
